A study of Homo sapiens with 4 samples.

Results

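The expression of 10 death receptor signalling genes was described in H929 cells, a long-established line grown from a patient's multiple myeloma, a cancer of plasma cells. They were chosen by name and not by a cut on their values, though earlier results of these data were known. They were the ligand gene TNFSF10, the receptor genes FAS, TNFRSF10A, TNFRSF10B and TNFRSF1A, and the adaptor genes FADD and RIPK1. The others were the initiator caspase genes CASP8 and CASP10 and the inhibitor gene CFLAR. All 10 were found among the 63677 genes counted, and all 10 passed the filter on low counts, as did 19142 genes in all. One group of cells was transduced with a short hairpin RNA (shRNA) that silences ILF2, the gene of a protein that binds double-stranded RNA with its partners, and the other with a non-silencing shRNA. Each group held 2 libraries of total RNA depleted of ribosomal RNA, described by the submitters as independent, but the sources used here do not say whether they came from separate transductions or carry the same ILF2 hairpin. The p-values therefore measure only the spread between these samples, which may be technical.

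Death receptors are cell surface proteins with an intracellular death domain. When a ligand gathers them, FADD joins the receptors for FAS ligand and for TRAIL (the protein of TNFSF10) to the caspases encoded by CASP8 and CASP10, which then activate one another. The protein of CFLAR, called FLIP, resembles these caspases but, lacking their catalytic activity, commonly holds them in check. The receptor encoded by TNFRSF1A binds tumour necrosis factor and first builds a complex around RIPK1 that feeds survival signals. TRAIL and its receptors have been studied as a therapeutic route in myeloma.

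The libraries held between 63459322 and 72977082 counted fragments, and the 10 genes took 0.0624% to 0.0649% of them. ILF2 was examined first because it checks the labels. Its level was 717 and 733 CPM (fragments scaled by the TMM-adjusted library size) in the non-silencing libraries and 107 and 114 CPM in the ILF2 shRNA libraries, so 15.3% remained (log2 change -2.71, SE 0.07; adjusted p = 9.2e-39, edgeR). The 10 plasma cell and myeloma markers examined were all at 1 FPKM or more (CPM per kilobase of summed exons) in at least 1 library. Their summed level was 8237 to 8289 CPM with the non-silencing and 8524 to 8757 CPM with the ILF2 shRNA. The sum covers changes in both directions. At an edgeR adjusted p under 0.05, 4 of these 10 markers were higher and 2 lower, beside 10.2% and 10.1% of all genes tested. Among 6 T and NK cell markers 5 stayed under 1 FPKM, and their sum rested on CD3E (8.22 and 7.49 against 16.1 and 17.0 CPM), while CD2 had at most 1 fragment in a library. Of 5 epithelial markers 4 stayed under 1 FPKM, with EPCAM at 0 fragments, and KRT18 made up most of their sum (23.3 to 24.3 against 29.3 to 29.5 CPM). The B cell, monocyte and stromal marker lists each summed to under 1 CPM in every library, with CD22, FCGR3A, COL1A2 and LUM at 0. Mitochondrial genes took 0.307% to 0.351% of fragments in the non-silencing and 0.463% to 0.516% in the ILF2 shRNA libraries. The part of CD3E, KRT18 or the mitochondrial share in the results below was not tested.

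With ILF2 shRNA the TRAIL receptor gene TNFRSF10B was higher and the tumour necrosis factor receptor gene TNFRSF1A was lower, and the remaining 8 genes did not pass the test. Of all genes tested, 20.3% were called: 10.2% were higher and 10.1% lower at an edgeR adjusted p under 0.05, so 1 of 10 in each direction is at the background. At an unadjusted p under 0.05, 3 of the 10 were higher and 2 lower, beside 15.5% and 15.4% of all genes tested. The median log2 change over the 10 genes was 0.02, beside 0.00 over all genes tested, and the median size of change, regardless of sign, was 0.15 beside 0.17. The 2 groups did not overlap in 6 of the 10 genes, beside 56.5% of all genes tested. These are levels averaged over all cells of a culture, in which fewer cells with a transcript and less of it per cell cannot be told apart.

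**Figure D1:**
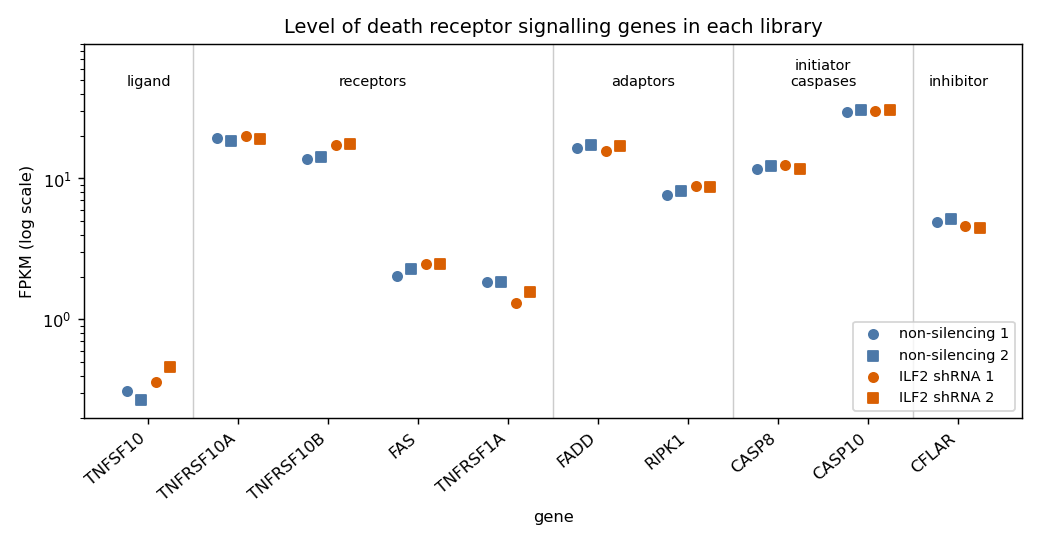
Level of each gene (FPKM, log axis) in the 4 libraries, ordered by role; blue points are non-silencing and orange points ILF2 shRNA libraries, circles replicate 1 and squares replicate 2. CASP10 stands highest, at 29.4 to 30.7 FPKM, and TNFSF10 lowest, at 0.268 to 0.462 FPKM.

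Levels between genes were compared per kilobase of summed exons. CASP10, an initiator caspase gene, led with 29.4 to 30.7 FPKM. The TRAIL receptor gene TNFRSF10A followed with 18.6 to 19.9 FPKM. FADD, the shared adaptor gene, had 15.7 to 17.4 FPKM and TNFRSF10B had 13.7 to 17.5 FPKM. These ranges overlap, so the order of FADD and TNFRSF10B was not resolved. CASP8 came next with 11.6 to 12.4 FPKM, then RIPK1 with 7.68 to 8.89 and CFLAR with 4.48 to 5.12 FPKM. FAS had 2.05 to 2.47 FPKM, TNFRSF1A 1.30 to 1.85 FPKM and TNFSF10 0.268 to 0.462 FPKM. Apart from FADD and TNFRSF10B, each gene in this order lay above the next in all 4 libraries. The scale divides by all exons annotated for a gene, which for CFLAR sum to 22528 bases. Divided by the length of the canonical transcript instead, CASP8 moved from the fifth to the second place, with 29.8 to 31.7 CPM per kilobase, and CASP10 and TNFSF10 kept the first and the last place among the 9 genes with a canonical transcript in the annotation (FAS had none).

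The receptor genes are described first. TNFRSF10B encodes a death domain receptor for TRAIL. It lies on chromosome 8 (ENSG00000120889, GRCh37, 22877646 to 22926692, minus strand). Its level was 70.4 and 72.9 CPM in the non-silencing libraries and 89.1 and 90.1 CPM in the ILF2 shRNA libraries. Both ILF2 shRNA libraries were above both controls, and the replicates of each group lay close together. The group values were 71.7 ± 1.74 and 89.6 ± 0.702 CPM (SD, n = 2), a 1.25-fold difference (log2 change 0.32, SE 0.07, 95% interval 0.18 to 0.46; adjusted p = 0.000335, edgeR). The call held with each library left out, at the closest without non-silencing replicate 1 (adjusted p = 0.0496, edgeR). It did not pass a test against a minimum log2 change of 0.2 in either direction (edgeR's glmTreat adjusted p = 0.104).

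TNFRSF10A encodes the other TRAIL receptor with a death domain (ENSG00000104689, chromosome 8, 23047965 to 23082639, minus strand). It had 57.2 and 54.7 CPM in the non-silencing libraries against 58.7 and 55.9 CPM in the ILF2 shRNA libraries. The 2 groups overlapped. The log2 change was 0.03 (SE 0.07; adjusted p = 0.797, edgeR), with a 95% interval of -0.11 to 0.18.

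The ratio of TNFRSF10B to TNFRSF10A within a library compares them without any scaling across libraries. It uses the same counts as the comparisons above and is not separate support for them. On the FPKM scale it was 0.705 and 0.762 with the non-silencing and 0.869 and 0.922 with the ILF2 shRNA. Both ILF2 shRNA libraries lay above both controls, at 122% of the mean of the controls. An exact two-sided permutation test of 2 libraries against 2 gave p = 0.333, the smallest it can give. Per kilobase of the canonical transcripts the ratio was 0.829 and 0.896 in the controls and 1.02 and 1.08 with the ILF2 shRNA, so which of the 2 genes is the more abundant per length depends on the transcript model.

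The genes of the TRAIL decoy receptors, which bind the ligand but carry no working death domain, lie in the same cluster on chromosome 8. TNFRSF10C had 4.70 ± 0.276 CPM with the non-silencing and 4.78 ± 0.296 CPM with the ILF2 shRNA (SD, n = 2; adjusted p = 0.928, edgeR). TNFRSF10D had 7.41 ± 0.435 and 7.23 ± 0.518 CPM (SD, n = 2; adjusted p = 0.862, edgeR). Of the summed FPKM of the 4 TRAIL receptor genes, TNFRSF10B made up 37% and 38.6% in the non-silencing and 42.1% and 43.4% in the ILF2 shRNA libraries. The share of TNFRSF10A was 52.5% and 50.7% in the controls and 48.4% and 47.1% with the ILF2 shRNA. The decoy genes shared 10.5% to 10.7% in the controls and 9.46% to 9.53% with the ILF2 shRNA. These are parts of a total, so a rise in the share of TNFRSF10B lowers the others. TNFRSF10A, TNFRSF10C and TNFRSF10D were themselves not called. The 4 genes have similar sequences, and fragments that map to several places are taken to be left out of the counts, so their levels relative to each other are uncertain.

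TNFRSF1A encodes the main receptor for tumour necrosis factor (ENSG00000067182, chromosome 12, 6437923 to 6451280, minus strand). It had 7.40 and 7.37 CPM in the non-silencing libraries and 5.22 and 6.26 CPM in the ILF2 shRNA libraries. Both ILF2 shRNA libraries lay below both controls, replicate 1 further than replicate 2. The group values were 7.38 ± 0.0201 and 5.74 ± 0.729 CPM (SD, n = 2), with a log2 change of -0.36 (SE 0.11, 95% interval -0.58 to -0.14; adjusted p = 0.0119, edgeR). The call ended without non-silencing replicate 1 (adjusted p = 0.0779, edgeR), without non-silencing replicate 2 (adjusted p = 0.0723, edgeR) and without ILF2 shRNA replicate 1 (log2 change -0.24, adjusted p = 0.202, edgeR), and DESeq2 gave an adjusted p of 0.0831.

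FAS encodes the receptor for FAS ligand (ENSG00000026103, chromosome 10, 90750414 to 90775542, plus strand). Its level was 7.29 and 8.13 CPM in the non-silencing libraries and 8.79 and 8.77 CPM in the ILF2 shRNA libraries. The groups did not overlap, but the controls differed from each other by more than the nearer control did from the ILF2 shRNA libraries. The log2 change was 0.19 (SE 0.10; adjusted p = 0.199, edgeR), with a 95% interval of -0.01 to 0.39. Exons of ACTA2 on the opposite strand overlap 12.1% of the FAS exons. ACTA2, named because of this overlap, was higher with ILF2 shRNA (log2 change 0.61, adjusted p = 0.00375, edgeR). The counting was set to use strand, and how well the libraries kept strand was not tested.

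TNFSF10 encodes TRAIL itself (ENSG00000121858, chromosome 3, 172223298 to 172241297, minus strand) and was the least abundant of the 10 genes. Its counts were 80 and 67 fragments with the non-silencing and 80 and 111 with the ILF2 shRNA. On the CPM scale these were 1.08 and 0.930 against 1.26 and 1.60, with only ILF2 shRNA replicate 2 standing well apart. The counting error alone is wide. Exact 95% Poisson intervals were 0.856 to 1.34 CPM in non-silencing replicate 1 and 0.7205 to 1.18 CPM in non-silencing replicate 2. They were 0.995 to 1.56 CPM in ILF2 shRNA replicate 1 and 1.32 to 1.93 CPM in ILF2 shRNA replicate 2. TNFSF10 passed narrowly with a filter of 1 CPM in 2 libraries (adjusted p = 0.0466, edgeR). Non-silencing replicate 2 lay under 1 CPM, so the gene met that filter only through the ILF2 shRNA group, and this call is not separate support. In the main analysis the log2 change was 0.51 (SE 0.20; adjusted p = 0.0644, edgeR), the largest in size among the 10 genes and the least precise. It was 0.68 without ILF2 shRNA replicate 1 (adjusted p = 0.0275, edgeR) and 0.32 without ILF2 shRNA replicate 2 (adjusted p = 0.469, edgeR).

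**Figure D2:**
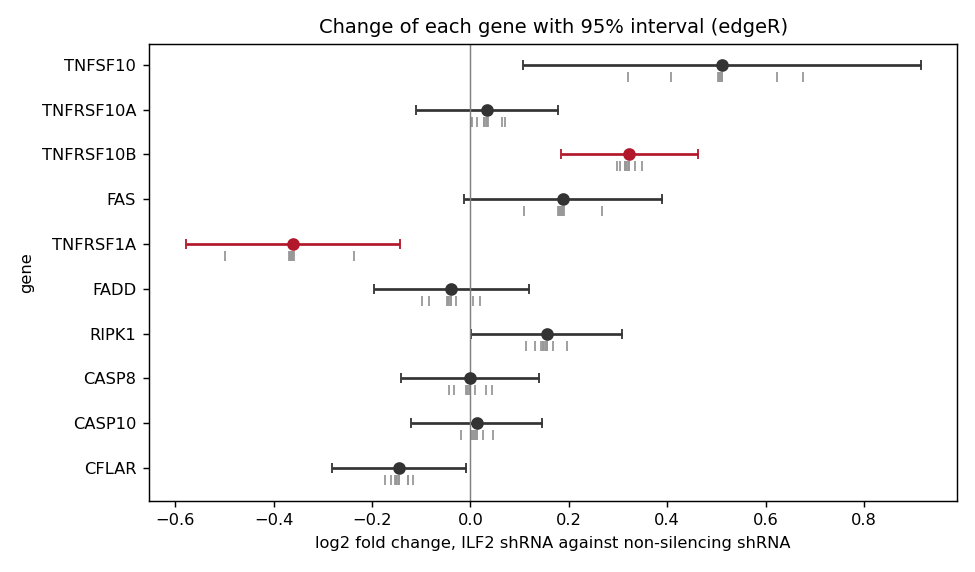
Log2 fold change of each gene with ILF2 shRNA against non-silencing shRNA; points are the edgeR estimates with 95% intervals, red where the adjusted p is under 0.05, and grey ticks are the estimates under 14 other ways of processing or leaving out a library. TNFRSF10B and TNFRSF1A are the genes in red, and the ticks of TNFSF10 and TNFRSF1A spread the most.

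Neither adaptor gene was called in the main analysis. FADD, whose protein links receptors to caspases, lies on chromosome 11 (ENSG00000168040, 70049269 to 70053496, plus strand). It had 30.1 and 32.0 CPM in the non-silencing and 29.0 and 31.4 CPM in the ILF2 shRNA libraries, and the groups overlapped (log2 change -0.04, SE 0.08; adjusted p = 0.792, edgeR). The 95% interval of its log2 change ran from -0.20 to 0.12. An antisense gene (ENSG00000254721) overlaps 54.9% of its exons but had at most 3 fragments in a library. RIPK1, a kinase gene of the tumour necrosis factor receptor complex, lies on chromosome 6 (ENSG00000137275, 3064225 to 3115421, plus strand). It had 32.5 and 34.4 CPM against 37.6 and 36.9 CPM. Both ILF2 shRNA libraries were above both controls, but the difference did not pass (log2 change 0.15, SE 0.08, 95% interval 0.00 to 0.31; adjusted p = 0.156, edgeR). Corrected for GC content and exon length it passed narrowly (log2 change 0.13, adjusted p = 0.0484, edgeR), with a smaller change than in the main analysis. That correction was added after seeing the data. It called 3030 of the 19142 genes tested higher, beside 1960 in the main analysis.

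The caspase genes and their inhibitor lie side by side on the plus strand of chromosome 2, in the order CFLAR (ENSG00000003402, 201980827 to 202041410), CASP10 (ENSG00000003400, 202047604 to 202094129) and CASP8 (ENSG00000064012, 202098166 to 202152434). CASP8, the main initiator caspase gene of this pathway, had 79.9 and 83.5 CPM in the non-silencing and 84.2 and 79.2 CPM in the ILF2 shRNA libraries. CASP10, the gene of its close relative, had 223 and 234 CPM against 229 and 232 CPM. For both genes the groups overlapped. The log2 change was -0.00 for CASP8 (SE 0.07, 95% interval -0.14 to 0.14; adjusted p = 0.997, edgeR). It was 0.01 for CASP10 (SE 0.07, 95% interval -0.12 to 0.15; adjusted p = 0.926, edgeR).

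CFLAR had 111 and 115 CPM in the non-silencing libraries and 104 and 101 CPM in the ILF2 shRNA libraries. Both ILF2 shRNA libraries lay below both controls, and the gap between the groups was wider than the difference between replicates. The log2 change was -0.15 (SE 0.07, 95% interval -0.28 to -0.01), which did not pass (adjusted p = 0.134, edgeR). It passed once corrected for GC content and exon length (log2 change -0.13, adjusted p = 0.0162, edgeR), with a smaller change than in the main analysis. That correction was added after seeing the data. It called 2845 of the 19142 genes tested lower, beside 1925 in the main analysis. The counts sum the long and short forms of FLIP, which could not be separated.

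Within a library the ratio of CFLAR to CASP8 on the FPKM scale was 0.420 and 0.418 with the non-silencing and 0.372 and 0.386 with the ILF2 shRNA. Both ILF2 shRNA libraries were below both controls, at 90.5% of the mean of the controls. The exact two-sided permutation p was 0.333, again the smallest that 2 libraries against 2 can give. The ratio of the raw counts was 1.39 and 1.38 against 1.23 and 1.28, so whether CFLAR or CASP8 is the more abundant depends on dividing by length, while the relation between the groups does not.

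**Figure D3:**
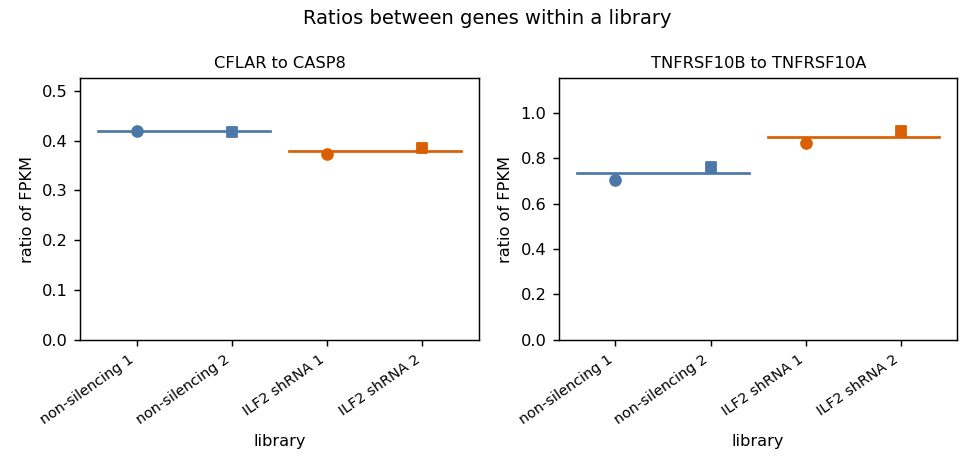
Ratio of CFLAR to CASP8 (left) and of TNFRSF10B to TNFRSF10A (right) on the FPKM scale in each library, with lines at the group means. The first ratio is lower with ILF2 shRNA (0.372 and 0.386 against 0.420 and 0.418) and the second higher (0.869 and 0.922 against 0.705 and 0.762).

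The genes near the 2 clusters were described for comparison. Within 1 Mb of the CFLAR, CASP10 and CASP8 cluster 28 other genes were tested, of which 2 were higher and 1 lower, with a median log2 change of -0.06. Within 1 Mb of TNFRSF10A and TNFRSF10B there were 30 other genes, of which 1 was higher and 5 lower, with a median of -0.06. Of all genes tested, 10.2% were higher and 10.1% lower, and the neighbour counts are small and were not tested against these shares. The median over all tested genes was -0.03 on chromosome 8 and 0.01 on chromosome 2.

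Other genes of the pathway were taken from a list of 45 chosen by role. Of these 38 passed the filter on low counts, 3 rose and 2 fell by edgeR, with a median log2 change of 0.00, against the background of 10.2% and 10.1% given above. At an unadjusted p under 0.05, 8 were higher and 3 lower, beside the 15.5% and 15.4% of all genes tested at that threshold. Among the 11 other ligands and receptors, 5 were tested. The ligand genes FASLG, LTA, LTB and TNFSF15 had at most 6 fragments in any library, and TNF and the soluble decoy receptor gene TNFRSF11B had 0 in all 4, which allows up to 3 fragments in a library, or 0.0405 to 0.0471 CPM.

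TNFRSF1B, the gene of the second tumour necrosis factor receptor, which has no death domain, went from 53.9 ± 0.311 to 64.3 ± 2.11 CPM (SD, n = 2). It rose by a log2 change of 0.25 (SE 0.07; adjusted p = 0.00644, edgeR), while TNFRSF1A fell. That call ended without non-silencing replicate 1 (adjusted p = 0.106, edgeR) or replicate 2 (adjusted p = 0.130, edgeR). TNFRSF21, which encodes a further receptor with a death domain, had 11.8 ± 0.659 against 9.95 ± 0.357 CPM (SD, n = 2), a log2 change of -0.25 (adjusted p = 0.0483, edgeR, but 0.142 by DESeq2). That call ended with each of the 4 libraries left out, at edgeR adjusted p of 0.0573 to 0.377.

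All 26 adaptors and regulators of the receptor complexes were tested, and 2 rose and 1 fell. Of all genes tested, 10.2% were higher and 10.1% lower. CRADD, the gene of an adaptor with a death domain and a caspase recruitment domain, went from 10.0 ± 0.317 to 12.7 ± 0.324 CPM (SD, n = 2; log2 change 0.34, adjusted p = 0.00474, edgeR), which no longer passed without non-silencing replicate 2 (adjusted p = 0.0954, edgeR). BIRC3, which encodes a ubiquitin ligase acting on RIPK1, went from 3.36 ± 0.056 to 4.37 ± 0.946 CPM (SD, n = 2; log2 change 0.37, adjusted p = 0.0353, edgeR, but 0.199 by DESeq2). Its rise came mostly from ILF2 shRNA replicate 1, since the log2 change was 0.14 without that library (adjusted p = 0.605, edgeR), and the call also ended without non-silencing replicate 1 (adjusted p = 0.164, edgeR) or replicate 2 (adjusted p = 0.115, edgeR). TRAF5, a gene of an adaptor of tumour necrosis factor receptors, went from 3.54 ± 0.0662 to 2.51 ± 0.0404 CPM (SD, n = 2; log2 change -0.50, adjusted p = 0.00579, edgeR), which no longer passed without non-silencing replicate 1 (adjusted p = 0.0595, edgeR).

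Of 8 genes for effectors of apoptosis and necroptosis, 7 were tested, and 0 passed by edgeR, by DESeq2 or at an unadjusted p under 0.05. Of all genes tested, 20.3% were called by edgeR, and at the unadjusted threshold 15.5% were higher and 15.4% lower. A count of 0 among 7 genes was not tested against these shares. The log2 changes of the 7 effector genes ran from -0.07 to 0.11. RIPK3, which encodes the kinase that acts upstream of MLKL in necroptosis, had at most 2 fragments in a library, while MLKL had 13.2 CPM in both groups.

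**Figure D4:**
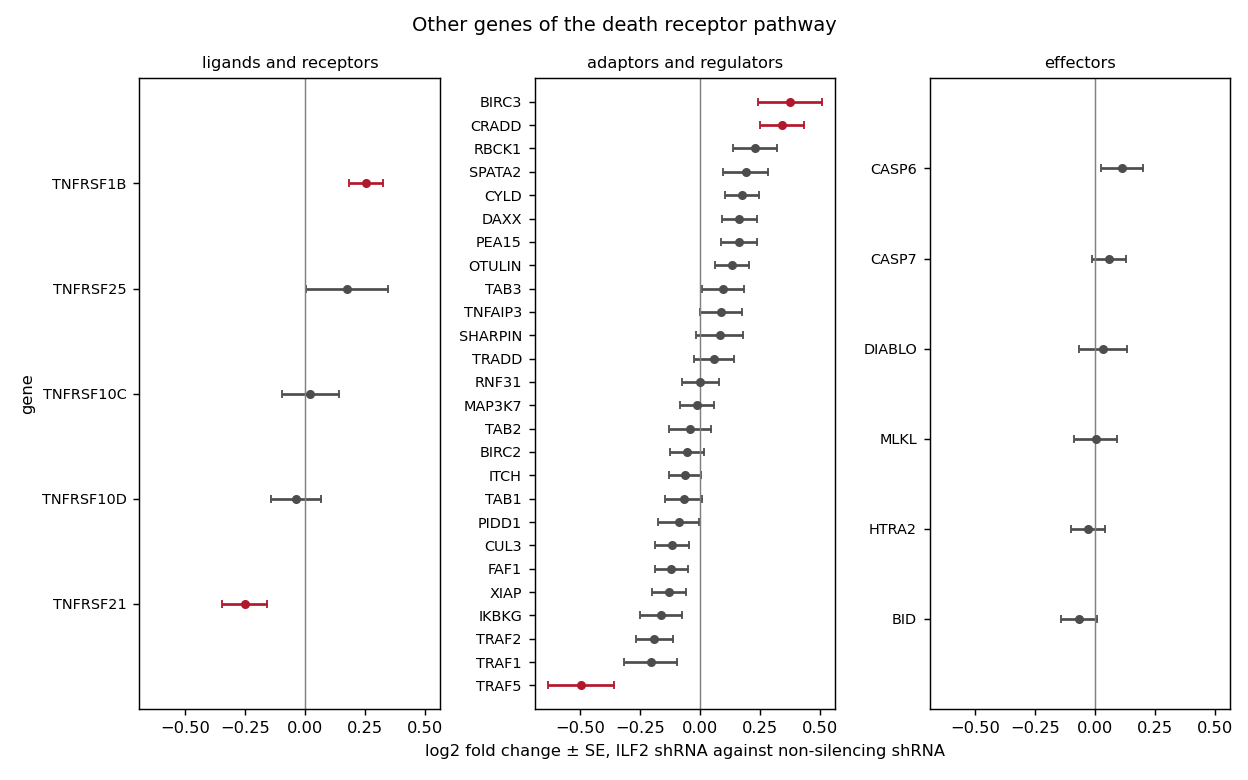
Log2 change with SE of other tested genes of the pathway, in 3 panels by role, red where the edgeR adjusted p is under 0.05. The genes in red are TNFRSF1B and TNFRSF21 among receptors and BIRC3, CRADD and TRAF5 among adaptors and regulators, and the effectors shown lie within -0.07 and 0.11.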

How the data were processed

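The authors deposited raw fragment counts per gene for each library, from featureCounts (Subread 1.4.6-p2) run on read pairs with strand setting 2, over exons of the Ensembl GRCh37 annotation grouped by gene, per the file headers. The headers show no option for fragments that map to several places or genes, which are taken to be dropped. The submitters' processing notes also list STAR 2.3.0 and SAMtools 0.1.19, while the design text names Tophat2.

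Symbols were matched in GENCODE's GRCh37 annotation by Ensembl ID, or by position at a reciprocal overlap of at least 0.8. Sample titles gave the groups. The test was edgeR 4.0.16's two-sided quasi-likelihood test in R 4.3.3 (TMM factors 0.970 to 1.02, filterByExpr with minimum count 10, robust dispersions, group only), with Benjamini-Hochberg adjustment over the 19142 genes kept and calls under an adjusted p of 0.05. With 2 residual degrees of freedom it leans on the spread shared across genes (biological coefficient of variation 5.38%). SE came from the F statistic. FPKM was computed here as CPM per kilobase of the exon length in the files. Poisson intervals cover counting error only. Replicates differed by more than counting noise (chi-square per gene 6.12 and 11.9). The procedure was tested on simulated counts, in which the changes put in were larger than those measured for TNFRSF10B and TNFRSF1A.

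Alternatives were DESeq2 1.42.0, limma-voom (limma 3.58.1), edgeR with size factors from DESeq2 or with upper-quartile factors, no low-count filter, 1 CPM in 2 libraries, leaving out mitochondrial genes and the 5 most abundant features, a replicate block, glmTreat at 0.2, and each library left out. GC and length trends (mgcv 1.9.3) and canonical transcript lengths were added after seeing the data. By rule the text names ILF2, the 10 genes, genes sharing exons with them and, per role of the other list, up to 6 called genes by adjusted p, or else the most abundant. A gene that this rule names is not reported here. TNFRSF10C, TNFRSF10D, MLKL, CD3E, CD2, KRT18 and the genes near 0 were named after their values were seen. The members and lists were chosen with earlier results of these data known.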

Additional observations from a re-analysis of the deposited data

How the results depend on the processing

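TNFRSF10B stayed higher in all 14 alternatives and was called in 13, the exception being glmTreat. TNFRSF1A stayed lower in all 14 and was called in 9. Among the 10 genes, the count higher was 1 in the main analysis and became 2 with a filter of 1 CPM in 2 libraries or with the GC and length correction, and 0 by glmTreat. Of all genes, 1824 of 13876 tested were higher with that filter and 3030 of 19142 with the correction. The main analysis had 1960 of 19142 higher and glmTreat 754 of 19142. The gene added by the filter was TNFSF10, which met it only through the ILF2 shRNA group. The count lower was 1 and became 0 by DESeq2 or glmTreat and 2 after the GC and length correction. Of all genes tested, 1261 of 14377 were lower by DESeq2, 788 of 19142 by glmTreat and 2845 of 19142 after the correction. The main analysis had 1925 of 19142 lower. Leaving out 1 library, where the lone library of a group was assumed to vary like the other group, gave 1 to 2 higher and 0 to 1 lower. Of the other pathway genes, 7 were higher and 5 lower with the GC and length correction, and 0 in either direction by glmTreat; 0 were lower by DESeq2, and 1 by limma-voom or with no low-count filter. Leaving out 1 library gave 0 to 5 higher and 0 to 2 lower. Over all genes 3030 were higher and 2845 lower after the GC and length correction (chosen after seeing the data), 754 and 788 by glmTreat, and 1363 and 1261 by DESeq2, beside 1960 and 1925 in the main analysis; leaving out 1 library gave 1029 to 1899 higher and 1070 to 1822 lower.

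The replicate number is not stated to mark a shared batch, so the numbers were not taken to pair the libraries. Same-numbered libraries of the 2 groups did not deviate together over the genes tested (correlation -0.02), but a correlation over all genes cannot exclude a shared batch. With replicate number as a block 1291 genes were higher and 1297 lower, 1 of the 10 genes was higher and 1 lower, and 1 of the other pathway genes was higher and 1 lower. TNFRSF1B (adjusted p = 0.0818, edgeR), BIRC3 (0.0718) and TNFRSF21 (0.154) did not pass in that fit, and TNFRSF10B (0.0152), TNFRSF1A (0.0353), CRADD (0.0307) and TRAF5 (0.0152) did. Of the called other pathway genes, BIRC3 (adjusted p = 0.199), TRAF5 (0.0749) and TNFRSF21 (0.142) did not pass by DESeq2, while TNFRSF1B and CRADD did. By limma-voom BIRC3 (adjusted p = 0.0631) and TNFRSF21 (0.0546) did not pass, while TNFRSF1B, CRADD and TRAF5 did.

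Uncalled genes near 0 changed sign. The log2 change of FADD, -0.04 in the main analysis, ran from -0.0986 to 0.0204 with 1 library left out. That of CASP8 was 0.0085 once GC and length were corrected for, and ran from -0.0428 to 0.0434 with 1 library left out. That of CASP10 ran from -0.02 to 0.0455 with 1 library left out. With raw counts the ratio of CFLAR to CASP8 was 1.39 in the non-silencing and 1.25 in the ILF2 shRNA group, and with canonical transcript lengths 0.252 and 0.228. The ratio of TNFRSF10B to TNFRSF10A was 1.28 and 1.56 with raw counts (non-silencing, then ILF2 shRNA) and 0.863 and 1.05 with canonical lengths. These shifts follow from the lengths used. The cause of the other changes was not tested.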
